A study of Mus musculus with 2 samples.

Results

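The genes Tal1, Lyl1, Lmo2, Lmo4, Ldb1 and Ldb2, which encode parts of a blood transcription factor complex and close relatives of those parts, were followed through 2 Affymetrix arrays of mouse cells. They were taken by name: every probeset of the deposited value table that the platform annotation pairs with 1 of these symbols alone was used, whatever its value. This gave 62 probesets for 6 genes, of 21947 genes named in this way. No member had a probeset shared with another gene. Both arrays held total RNA of the CD41-positive compartment of a culture started from FLK1-positive mesoderm, which was isolated on day 3 from embryoid bodies of mouse embryonic stem cells, line Bry-GFP, and sorted for CD41 on culture day 2. The control culture received DMSO, and the other received 300 nM of compound B, an inhibitor of the histone demethylase LSD1. The labels call the cells hemogenic endothelial cells, the endothelium from which blood cells arise. There was 1 array per condition, from 1 cell line, so no difference below has a replicate check and no test between the conditions was possible. How many cultures went into an array is not given in the sources used here.

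Tal1, also called Scl, and its relative Lyl1 are basic helix-loop-helix proteins that bind the E-box of DNA together with an E protein. Lmo2 does not bind DNA itself: its LIM domains join the helix-loop-helix pair to Ldb1 and to a GATA factor, and Ldb1 binds to itself and so can bring distant enhancers to promoters, as it does at the beta-globin genes. Lmo4 is another LIM-only protein that binds Ldb1, and Ldb2 is the close relative of Ldb1. Tal1 and Lmo2 are needed for embryonic blood to form, and Tal1 and Lyl1 share functions in blood stem cells.

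Of the core of the complex, Lmo2, Tal1, Lyl1 and Ldb1 were all lower in the inhibitor array, by less than 2-fold each, whereas Ldb2 was 2.38-fold higher and Lmo4 differed little. A gene's level is the median of its bright probesets in log2 intensity, and its difference is the median of the probeset differences, inhibitor minus DMSO. The gap between the levels can therefore be another number than the difference. A probeset is bright if the higher of its 2 values is at least 3.17, the median of the table. An SD is the spread over a gene's probesets within this pair of arrays and is no replicate error. The size rule asks for 2-fold, a log2 difference of 1 or more in size, with at least 75% of bright probesets in that direction. All 6 members had the 4 bright probesets that a gene needed to be measured, as did 15087 genes in all. Of the members, 60 probesets were bright, and the 2 that were not belong to Lmo2. Ldb2 alone passed the size rule upward, which 1.72% of all measured genes did, and no member passed it downward, which 0.563% did. The difference was below 0 with at least 75% of bright probesets lower for 4 of the 6 members, against 10.8% of all measured genes. The median difference was -0.23 over the 6 members and 0.06 over all measured genes.

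**Figure D1:**
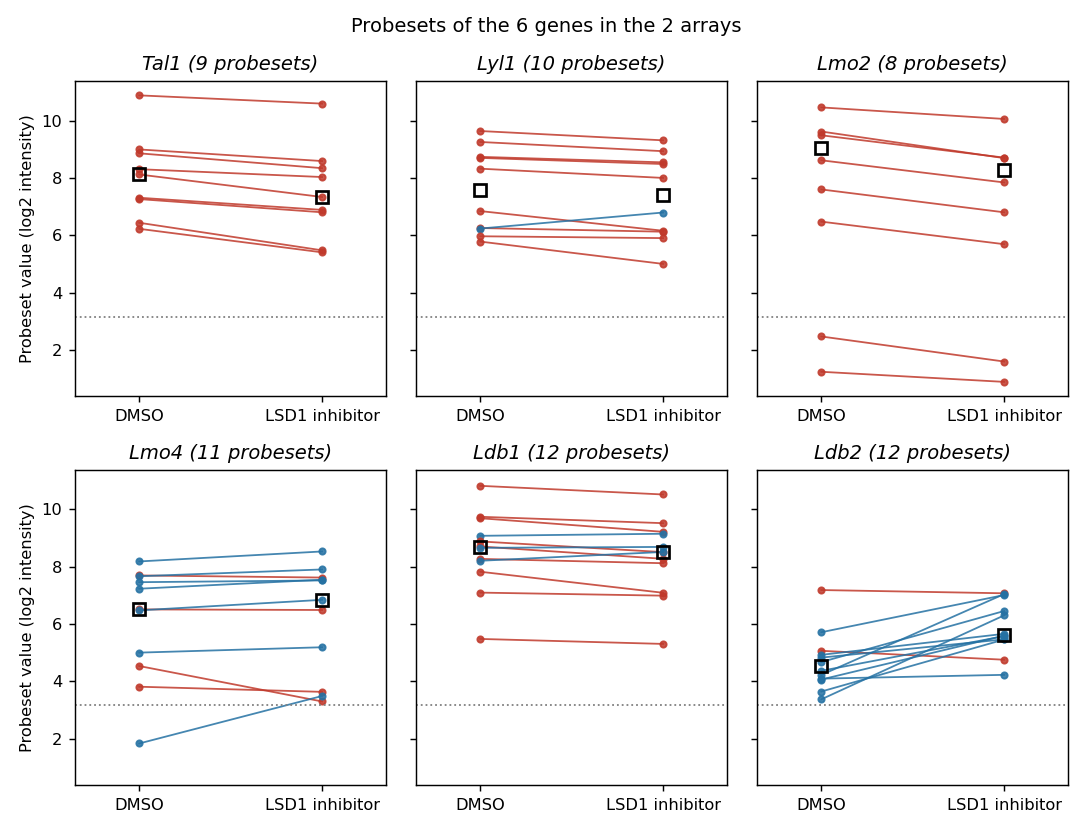
Each line joins the 2 values of a probeset (log2 intensity, vertical axis) in the DMSO and the inhibitor array, red where the inhibitor value was lower and blue where it was higher. Open squares are the gene levels and the dotted line is the median of the table, 3.17. All 9 Tal1 and all 8 Lmo2 lines slope down, and 10 of the 12 Ldb2 lines slope up.

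Tal1, the helix-loop-helix factor that gives the complex its name, had a level of 8.12 in the DMSO array and 7.34 in the inhibitor array. Its values ran from 6.23 to 10.88 over 9 probesets with DMSO and from 5.41 to 10.59 with the inhibitor. Each of the 9 probesets was lower with the inhibitor, by between 0.27 and 0.96. The difference was -0.46 (SD 0.25), which is 1.38-fold lower. It was not even over the gene's probesets. The 3 brightest had a mean difference of -0.40, and the 3 dimmest, which were still above the table's median in both arrays, had a mean of -0.75. Among the 754 measured genes in the same of 20 bins of level, the central 90% of differences lay between -0.22 and 0.53, and 1.59% lay below that of Tal1.

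Lyl1, which can stand in for Tal1 in part of its functions, had a level of 7.58 with DMSO and 7.40 with the inhibitor. It was lower in 9 of 10 probesets, with a difference of -0.27 (SD 0.36), or 1.20-fold lower. The single probeset in the other direction went from 6.24 to 6.80. The 5 brightest Lyl1 probesets, all above 8 in both arrays, lay close together at -0.32, -0.32, -0.19, -0.21 and -0.32. The differences of Lyl1 and Tal1 were 0.19 apart, and their probesets overlapped: 5 of the 10 Lyl1 differences were above the highest of Tal1, which was -0.27. Among 755 genes of like level, 5.03% had a difference below that of Lyl1.

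Tal1 and Lyl1 are the members that bind DNA, and the windows around their own RefSeq start sites are shown. Marked in them are the letters that the complex is known to recognise, the E-box CANNTG and the GATA factor core GATA. The RefSeq promoter table (GRCm38.p6) matched 4 of the 6 members, leaving Lmo2 and Ldb2, with 2 windows for Tal1 and 1 for Lyl1. Each window runs from 250 bases before to 50 bases after a start, 5′ to 3′ on the + strand, and capitals mark every CANNTG and every GATA read on either strand. The windows are Tal1 window 1 at chr4:115056176-115056475, Tal1 window 2 at chr4:115057561-115057860 and Lyl1 at chr8:84701207-84701506.
Tal1 window 1: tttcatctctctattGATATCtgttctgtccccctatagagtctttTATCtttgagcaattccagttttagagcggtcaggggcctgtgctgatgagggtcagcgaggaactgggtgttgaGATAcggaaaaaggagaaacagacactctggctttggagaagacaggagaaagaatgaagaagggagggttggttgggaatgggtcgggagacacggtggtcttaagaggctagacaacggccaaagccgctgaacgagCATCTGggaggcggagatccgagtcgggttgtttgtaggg
Tal1 window 2: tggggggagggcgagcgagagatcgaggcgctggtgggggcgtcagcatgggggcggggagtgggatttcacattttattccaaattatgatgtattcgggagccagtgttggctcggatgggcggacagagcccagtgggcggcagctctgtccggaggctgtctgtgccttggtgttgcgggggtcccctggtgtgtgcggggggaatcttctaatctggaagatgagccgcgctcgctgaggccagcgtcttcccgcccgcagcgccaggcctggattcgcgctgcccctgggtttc
Lyl1: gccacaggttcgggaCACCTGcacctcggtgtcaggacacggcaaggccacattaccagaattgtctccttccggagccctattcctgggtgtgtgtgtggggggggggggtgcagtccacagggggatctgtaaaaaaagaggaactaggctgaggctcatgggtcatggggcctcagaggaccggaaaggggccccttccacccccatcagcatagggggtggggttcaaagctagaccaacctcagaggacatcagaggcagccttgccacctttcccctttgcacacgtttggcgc
The first Tal1 window held 1 E-box and 4 GATA matches, of which a pair overlaps in the run GATATC. The second held neither, and the Lyl1 window held 1 E-box and no GATA. Among the windows not printed, window 1 of Ldb1 held more of both, with 2 E-boxes and 5 GATA matches. A CANNTG was present in 72.3% and a GATA in 57.9% of all 32851 promoter windows of the same length, so both are common in windows of 300 bases. A CANNTG followed after 8 to 10 bases by GATA on the same strand, close to the spacing known for the complex, was in 537 of the 32851 windows and in none of the 9 windows of Tal1, Lyl1, Lmo4 and Ldb1. Such matches describe letters in these windows and are neither binding sites nor causes of a difference.

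Lmo2, the bridge of the complex, had the lowest difference of the 6. Its level was 9.05 with DMSO and 8.27 with the inhibitor, and the difference was -0.78 (SD 0.18 over 6 bright probesets), which is 1.72-fold lower. The 6 bright probesets went from 10.46 to 10.06, from 9.62 to 8.69, from 9.49 to 8.71, from 8.62 to 7.84, from 7.60 to 6.80 and from 6.48 to 5.69. Apart from the brightest probeset, at -0.40, these differences lay between -0.93 and -0.77, over a range of brightness from the gene's dimmest bright probeset to its second brightest. The remaining 2 probesets were below the table's median in both arrays and were also lower, from 2.48 to 1.60 and from 1.25 to 0.90. The SD of Lmo2 was small: 1.76% of measured genes had a smaller one, and the median gene had 0.60. A lower difference than that of Lmo2 was found in 223 of the 15087 measured genes (1.48%) and in 0.531% of the 754 genes of like level. Lmo2 did not reach 2-fold, but it was the single member past the rule at a 1.5-fold threshold downward, which 2.66% of all measured genes passed. Tal1 and Lmo2 were lower in every bright probeset, as were 0.724% of the 12577 genes with at least 6 of them.

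Lmo4, the other LIM-only protein measured here that binds Ldb1, had a level of 6.51 with DMSO and 6.84 with the inhibitor. Its difference was 0.19 (SD 0.67), with 7 of 11 probesets higher and 4 lower. The 7 brightest probesets lay between -0.07 and 0.37. The probesets farthest from the others were both among the gene's 4 with the lowest values: one went from 1.84 to 3.49 and another from 4.54 to 3.30. Lmo4 and Lmo2 were 0.97 apart in their differences, and 10 of the 11 Lmo4 probesets had a difference above the highest of Lmo2, -0.35. That highest value is from a dim Lmo2 probeset, and the highest of the bright ones was -0.40. At its level, 38.1% of 754 genes had a higher difference, so Lmo4 lay in the middle of genes of like brightness.

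**Figure D2:**
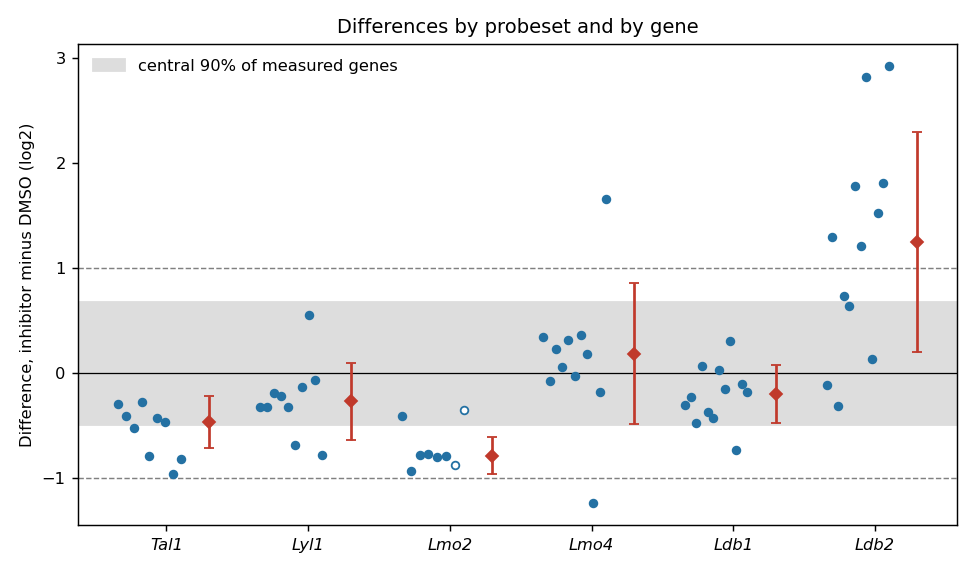
Differences, inhibitor minus DMSO (log2, vertical axis), of each probeset as points (filled for bright, open for dim) and of each gene as a diamond with 1 SD over its bright probesets. The grey band is the central 90% of the 15087 measured genes (-0.50 to 0.68) and the dashed lines mark 2-fold. Lmo2 lies below the band and Ldb2 above it.

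Ldb1, the scaffold that holds the complex together, had a level of 8.68 with DMSO and 8.51 with the inhibitor. The difference was -0.20 (SD 0.28), or 1.15-fold lower, with 9 of 12 probesets lower. Its brightest probeset went from 10.82 to 10.51, and the differences ran from -0.73 to 0.31. Of the 754 genes of like level, 6.23% had a lower difference, so Ldb1 was inside the central 90% of that bin, -0.24 to 0.47.

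Ldb2, its relative, had a level of 4.52 with DMSO and 5.63 with the inhibitor. The difference was 1.25 (SD 1.05 over 12 probesets), which is 2.38-fold higher, and 10 of the 12 probesets were higher. The probesets with the largest differences went from 3.38 to 6.30 and from 4.23 to 7.05. These are steps of 2.93 and 2.82. Others moved from 3.65 to 5.46, from 4.68 to 6.46, from 4.07 to 5.60, from 5.72 to 7.01 and from 4.37 to 5.58. The brightest Ldb2 probeset with DMSO did not share in this, with 7.19 and 7.07, and another went from 5.07 to 4.76. The Ldb2 probesets thus disagreed among themselves, and 92.2% of measured genes had a smaller SD than Ldb2. Which exons or transcripts they cover is not given in the files. A higher difference than that of Ldb2 was found in 141 measured genes (0.935%) and in 1.06% of the 754 genes of like level. Ldb2 lost its place past the size rule with its even-ranked probesets alone, at 0.68, and was at 1.80 with the odd-ranked ones. Ranks here follow the order of the probeset identifiers and not brightness. The differences of Ldb2 and Ldb1 were 1.45 apart, and 9 of the 12 Ldb2 probesets had a difference above the highest of Ldb1, which was 0.31.

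The spread of the 62 probesets moved with their brightness. Of the 41 with a mean of 6 or more over both arrays, 31 were lower with the inhibitor, and 1 differed by more than 1, a probeset of Ldb2. Of the 21 dimmer ones, 8 differed by more than 1, and 2 of these were of Lmo4 and the rest of Ldb2. Without Ldb2, the SD was 0.37 over 39 brighter and 0.79 over 11 dimmer probesets. Levels of different probesets cannot be set against each other as amounts of RNA, so no order of abundance among the 6 genes is given.

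**Figure D3:**
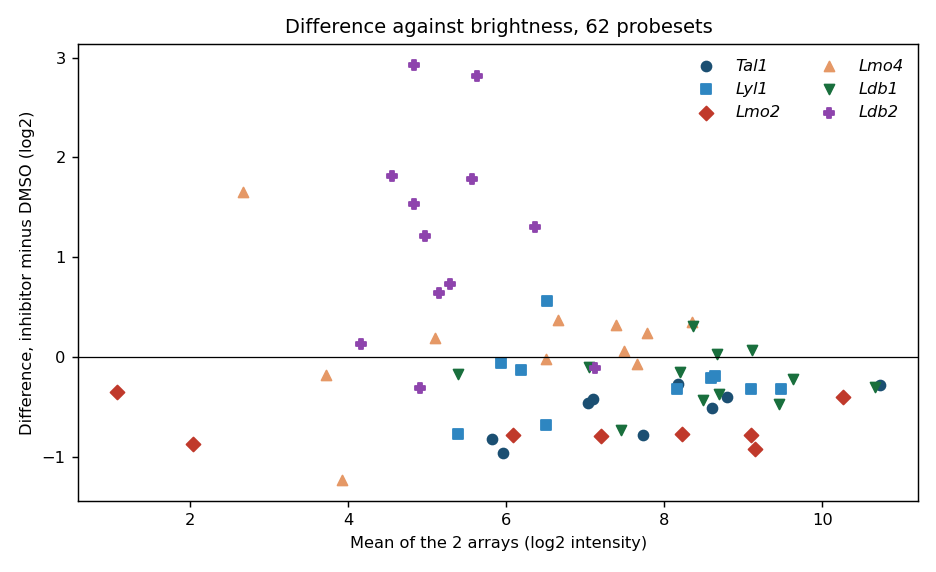
Difference, inhibitor minus DMSO (log2, vertical axis), of the 62 probesets against the mean of their 2 values (log2 intensity, horizontal axis), with a colour and shape for each gene. From a mean of 6 upward 31 of the 41 points lie below 0. The points beyond 1 in either direction belong to Ldb2 and Lmo4.

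The partners of the complex were followed in lists of named genes, read against the same 1.72% higher and 0.563% lower of all measured genes. Of the 9 direct partners, all measured, 1 passed the size rule upward and 0 downward, with a median difference of 0.07. That gene was Gata2, the GATA factor of stem and progenitor cells, at 6.68 with DMSO and 7.98 with the inhibitor (difference 1.41, SD 0.56, 7 of 7 probesets higher). Gata1, the GATA factor of red cells and megakaryocytes, was at 7.24 and 6.57 (-0.73, SD 0.35, 9 of 9 lower). So the 2 GATA factors that Lmo2 can hold differed in opposite directions, of which only that of Gata2 passed the rule.

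Among the E proteins that pair with Tal1 and Lyl1, Tcf3, which encodes E2A, was at 6.66 and 6.95 (difference 0.24), Tcf12, which encodes HEB, at 7.36 and 7.72 (0.31), and Tcf4, which encodes E2-2, at 5.67 and 5.71 (-0.07). None passed the size rule. The single-stranded DNA binding proteins that join Ldb1 and shield it from breakdown were uneven: Ssbp2 was at 6.66 and 6.32 (-0.57, 21 of 22 probesets lower) and Ssbp4 at 6.60 and 7.26 (0.71, 18 of 20 higher). Ssbp3 was at 7.77 and 7.92, with a difference of 0.07 that turned to -0.0086 with a level-dependent trend removed and to -0.07 as a mean over probesets. Rlim, the ubiquitin ligase that marks Ldb proteins for breakdown, was at 8.75 and 8.88, with a difference of 0.05 that turned to -0.02 with the trend removed, to -0.0068 with the median gene set to 0 and to -0.04 with the brighter probesets alone.

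Id proteins bind E proteins and keep them from DNA, and so from Tal1. Of the 4 genes, 3 passed the size rule upward and 0 downward, with a median difference of 1.51. Id3 was at 6.02 and 9.26 (difference 3.24, SD 0.74), Id2 at 4.81 and 6.84 (1.81, SD 0.80) and Id1 at 6.23 and 7.71 (1.21, with 3 of 4 probesets higher). Each of these 3 rests on 4 probesets, so they could not be measured where a setting used part of a gene's probesets. Id4 was at 4.17 and 5.10, with a difference of 0.22 over 6 probesets.

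The factors known to bind together with Tal1, Lyl1 and Lmo2 in blood progenitors are Gata2, Runx1, Erg and Fli1. Besides Gata2, the ETS factor gene Erg passed the rule, at 6.29 and 7.15 (difference 1.26, SD 1.11, 11 of 12 probesets higher), which dropped to 0.88 when the even-ranked probesets were used. Fli1, another ETS factor, was at 8.89 and 9.30 (0.51, SD 0.14, 9 of 9 higher). Runx1 was at 8.44 and 8.60, with a difference of 0.11 that turned to -0.07 as a mean over probesets. The median of the 4 was 0.88, while Tal1, Lyl1 and Lmo2 were all below 0.

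Of 9 genes of corepressors that meet the complex, 1 was higher past the size rule, none was lower, and the median was 0.09. The one was Gfi1b, a repressor that recruits LSD1, at 8.41 and 9.93 (difference 1.56, SD 0.40, 7 of 7 probesets higher). Cbfa2t3, which encodes ETO2, the corepressor most closely tied to the Tal1 complex, was at 7.46 and 7.04 (-0.42, SD 0.29) and was lower in 16 of 16 probesets.

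The list of genes known from other work as bound or regulated by the complex held 18 genes, of which 17 were measured. Of these, 4 were higher past the size rule, 3 were lower and 10 were neither, with a median of -0.12. The lower ones are red cell genes: Epb42, a protein of the red cell membrane skeleton, was at 5.39 and 3.93 (difference -1.18), the anion exchanger gene Slc4a1 at 5.47 and 4.06 (-1.15) and Klf1, an erythroid transcription factor, at 6.76 and 5.64 (-1.12). With dim probesets kept, Epb42 alone of the 3 stayed past the rule, with Klf1 at -0.90 and Slc4a1 at -0.81. The higher ones were Gata2, Gfi1b and Erg, given above, and Cdh5, which encodes the endothelial cadherin and was at 7.89 and 9.84 (2.11, SD 0.82, 12 of 13 higher).

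**Figure D4:**
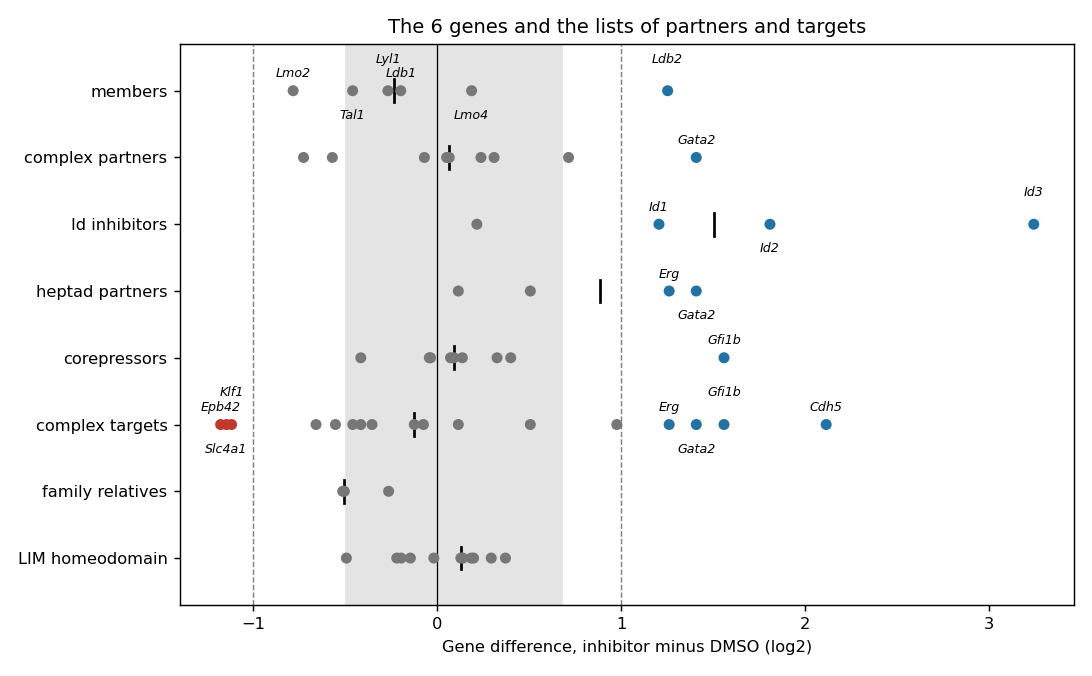
Gene differences, inhibitor minus DMSO (log2, horizontal axis), of the 6 members and of the 7 lists, with blue for genes past the size rule upward, red for those past it downward and grey for neither. Black bars are list medians, the grey band is the central 90% of measured genes and the dashed lines mark 2-fold. The 3 Id genes past the rule and Cdh5 lie to the right, and the 3 red cell genes to the left.

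Tal1, Lyl1, Lmo2 and Ldb1 are used by red cells, and Tal1 and Lmo2 also by endothelium, so the markers of both are given beside them. Of 9 measured erythroid markers, 7 passed the size rule downward and 0 upward, with a median difference of -1.18, and all 9 were below 0. Besides Epb42, Slc4a1 and Klf1 these were Trim10 (-2.51), the globin genes Hbb-y (-1.89) and Hba-x (-1.60), and Epor (-1.64). The other 2 did not pass: Alas2 (-0.07, 4 of 13 probesets higher) and the globin gene Hbb-bh1, at 11.19 and 10.49 (-0.29, 5 of 5 lower). The median of the 9 levels was 6.97 with DMSO and 5.64 with the inhibitor. Of 9 measured endothelial markers, 4 passed it upward and 0 downward, with a median of 1.02, and all 9 were above 0. Besides Cdh5 these were Esam (1.97), Egfl7 (1.63) and Plvap (1.61). The median of the 9 levels was 6.41 with DMSO and 7.36 with the inhibitor, and Ldb2 was higher together with them. Of 5 measured megakaryocyte markers 1 passed downward, Pf4 at -2.29, with Gp1bb at -0.70. Of 7 myeloid markers 1 passed upward, Lyz2 at 1.77, with Ctsg at 0.91. None of 8 mesenchyme and smooth muscle, 6 cardiac and 4 pluripotency markers passed. The largest differences there were those of Pdgfrb (-0.82) and Pdgfra (-0.57), of Tnnt2 (0.40) and Myl7 (0.38), and of Dppa5a (0.53) and Pou5f1 (0.18). No measured marker of these lists had a level under the table's median in both arrays. The need for 4 bright probesets all but fixes this, so it does not show that the markers were expressed. The share that these cell types have in the differences of the members was not tested, and in sorted bulk cells fewer cells of a type and less RNA per cell cannot be told apart. Among genes tied to the labelled identity, Cdh5 and Runx1 were well above the table's median in both arrays, as given above. Itga2b, which encodes CD41, was at 6.19 with DMSO and differed by -0.12. These levels do not single out that identity, since the cardiac marker Tnnt2, for example, was at 6.06 and 6.30. The embryonic globin gene Hba-x was at 12.46 and 10.22, so the sorted cells held red cell transcripts as well. Of the mesenchyme and smooth muscle markers, Acta2 had the highest level, at 11.06 and 10.46, and Pdgfra the lowest, at 4.02 and 3.35. Levels of different genes are not amounts of RNA.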

How the data were processed

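Each array gave 1 value per probeset. The authors' deposited values were taken as log2 intensity from their range, 0.157 to 13.5. How the authors summarised and normalized them is not given in the sources used here. Sorted, both arrays coincide within 0.085. The deposited table stops at 1048575 probesets, as many as fit under a header line in a spreadsheet, so members may have further probesets that were not analysed here. It gives no detection call. A platform annotation named 270105 probesets with 1 symbol, and older symbols were updated through RefSeq synonyms.

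Values were used as deposited, with no further scaling (Python 3.11.15, pandas 2.3.3). Levels, differences and the size rule were computed for all genes and tried on simulated data. The simulated differences were larger than that of any member and carried noise between probesets alone. Errors between arrays were therefore not tested. With 1 array per condition there is no p-value, and precision is limited by the number of arrays. The members, lists and rules were chosen with earlier results of these data known. The text names the members and all measured genes of the direct partner, Id and co-binding lists. Of the other lists it names those past the size rule and the 2 with the largest difference (marker lists included). Itga2b, Hhex, Hbb-bh1, Alas2 and Acta2 were chosen after their values were seen. The text also names the 2 genes nearest to each member in DMSO level and difference. The alternatives varied scaling, the dim filter, floors, the summary, the probesets used and the thresholds. One, the median gene set to 0, was added after seeing the data.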

Additional observations from a re-analysis of the deposited data

How the results depend on the processing

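The differences of Tal1, Lyl1, Lmo4 and Ldb1 kept their direction and their side of the size rule in all 13 settings, and that of Lmo2 in the 10 that measured it: odd-ranked, even-ranked or brighter probesets alone left Lmo2 too few. The ranges were -0.64 to -0.40 for Tal1, -0.33 to -0.13 for Lyl1, -0.86 to -0.74 for Lmo2, 0.08 to 0.27 for Lmo4 and -0.34 to -0.16 for Ldb1. Ldb2 kept its direction in 13 settings (0.68 to 1.80) and its side in 12. With even-ranked probesets alone it was at 0.68, which left 0 members past the rule upward, as did a 3-fold threshold (0). A 1.5-fold threshold put 1 member past it downward, Lmo2.

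Over the 50 measured genes of the 7 lists, 7 were higher and 3 lower. The higher count was 4 with brighter and 4 with odd-ranked probesets alone, 1 with even-ranked ones, 2 with at least 8 bright probesets and 3 at 3-fold. The lower count was 1 with no dim filter, 1 with a floor at the median of the table, 5 at 1.5-fold and 0 at 3-fold. The settings named above test fewer genes, use fewer probesets or move the threshold by construction, except the floor and the missing dim filter. Those let dim probesets count, and the floor also sets the differences of dim probesets to 0. Slc4a1, for example, had 22 probesets with either, in place of 18. No paired analysis was possible because each condition has 1 array. No detection call is given, so dim probesets cannot be told from background.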

Other observations

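Relatives of the members outside the complex showed no difference past the size rule. Of all measured genes, 1.72% passed it upward and 0.563% downward. In so few genes, a count of 0 is therefore no result about the relatives. Of 5 genes of the Tal and Lmo families, 3 were measured. Nhlh2, a neuronal helix-loop-helix factor, was at 4.59 with DMSO and 4.22 with the inhibitor (difference -0.51), and Lmo3, a LIM-only gene, at 4.02 and 3.32 (-0.50). Tal2 and Nhlh1 had too few bright probesets. Of 12 genes of LIM homeodomain factors, which bind Ldb1 through the same kind of domain as Lmo2, 11 were measured, none passed the rule and the median difference was 0.13. Isl1 was at 4.08 and 3.39 (-0.49), and Lhx6 at 4.09 and 3.75, with a median probeset difference of 0.37 that turned to -0.25 with its even-ranked probesets alone. All 4 genes named here are dim. With a floor at the table's median, Nhlh2 was at -0.01, Lmo3 and Isl1 were at 0, and Lhx6 was at 0.30. That floor lets dim probesets count and sets their differences to 0. Isl1 then had 11 probesets in place of 6, and Lmo3 10 in place of 5. Their values of 0 thus follow from the floor itself. Among the targets, Hhex, a homeobox gene of early blood and endothelium, lay just under the rule at 5.81 and 6.98 (0.98, 5 of 5 probesets higher), and just past it with each array centred on its median or with the mean over probesets.

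The genes nearest to each member in DMSO level and difference, 2 values from this pair of arrays and so a weak measure of likeness, were Nfe2 and Cap2 for Tal1, Nat10 and Wdhd1 for Lyl1, Snrnp25 and Adgrg1 for Lmo2, Usp36 and Stim2 for Lmo4, Znhit6 and Fbxo5 for Ldb1, and Atp6v0e2 and Pon3 for Ldb2. Their distances in log2 ran from 0.0065 for Usp36 to 0.29 for Adgrg1. Lmo2 had no closer gene than Snrnp25, at 0.20, whereas the nearest genes of Lyl1, Lmo4, Ldb1 and Ldb2 were within 0.032. Since levels of different probesets are not amounts, this describes values and nothing else.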
